A study of Rattus norvegicus with 64 samples.

Results

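The data described here are the 16 liver libraries collected 10 h after dosing, out of 64 libraries in the series: 8 from Sprague Dawley rats given acetaminophen and 8 from rats given vehicle. They are defined by their tissue, time and agent labels, and this comparison was chosen with earlier results of these data known. Acetaminophen was given as 1 dose of 2 g/kg, and vehicle rats received 6 ml/kg of 50% polyethylene glycol. The series used 32 rats for its 32 liver libraries, so each library stands for its own rat. The labels name no sex, age, batch or animal number, and the livers are bulk tissue, so fewer cells of a type and less RNA per cell cannot be told apart. Messenger RNA was measured as kallisto's estimated counts for 28420 transcripts with Ensembl identifiers. The identifiers are paired with gene symbols neither in the files nor in the reference table, which matched 0 of them, so transcripts are described by abundance, size of change and separation of the groups, and 4 are named by identifier.

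Acetaminophen is an analgesic that the liver clears mainly by glucuronidation and sulfation. A smaller part is oxidised by cytochrome P450 enzymes to a reactive quinone imine, which glutathione neutralises. In overdose glutathione runs low, the quinone imine binds proteins, mitochondria are damaged and hepatocytes around the central vein die. Rats are known to be less sensitive to this injury than mice.

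Library totals lay between 22593668 and 28516153 estimated counts. Between 21.8% and 25.9% of a library fell on its 10 most abundant transcripts. Defining markers of liver could not be looked up without gene symbols, but each of the 16 libraries correlated more closely with every other liver library (Pearson r of at least 0.956 across transcripts on the log2(TPM + 1) scale) than with any kidney library (at most 0.844). Libraries of the same group always differed by more than counting noise, with a smallest chi-square per degree of freedom of 25.1. Acetaminophen replicate 8 stood apart from its group. The slope of its deviation in log2 CPM on log2 transcript length was -0.181, so long transcripts were low in it, against -0.0242 to 0.0490 in the other acetaminophen livers and -0.0161 to 0.0339 in vehicle livers. In the 5 h livers used further on, acetaminophen replicates 6 and 7 and vehicle replicate 6 had slopes of the same kind, -0.0889, -0.0996 and -0.137, while the others lay between -0.0199 and 0.0599. Several results that rest on these libraries are given with and without them. Others are given only with them, among them the score on transcripts called at 5 h, the separation at 5 h and the SD ratios of named transcripts.

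The first question was how large the differences between acetaminophen and vehicle livers were, and at which abundance they lay. Of 14943 transcripts tested, 1455 rose (9.74%) and 909 fell (6.08%), together 15.8% (edgeR's quasi-likelihood test, Benjamini-Hochberg adjusted p under 0.05). Most changes were modest: the median log2 change was 0.50 among those that rose and -0.71 among those that fell, while the median size over all transcripts tested was 0.24 with a median standard error of 0.19. A log2 change of at least 1 was reached by 192 that rose and 251 that fell. Without acetaminophen replicate 8, 1093 rose and 909 fell.

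Abundance is given here as mean CPM over the 16 livers (CPM, the estimated count divided by the library total scaled with TMM factors), which reflects reads and not molecules, since long transcripts yield more reads. Calls were few among scarce transcripts. Of 2463 transcripts under 1 CPM, 33 rose and 84 fell. Their called changes were large, with a median size of 1.33 on the log2 scale, and no called change in this class was smaller than 0.69. This order depends on the scale. By limma on log2(TPM + 1), where the pseudocount holds down changes of scarce transcripts, the median size of called changes was 0.32 under 1 CPM, the smallest of the 5 classes, and 0.48, 0.45, 0.59 and 0.67 in the classes of rising abundance. In the edgeR fit the median standard error was 0.42 under 1 CPM, against 0.13 for transcripts of 10 to 100 CPM, where changes down to 0.17 were called.

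Between 1 and 10 CPM, 390 of 5817 transcripts rose and 298 fell, with a median size of 0.73 among the called. The class of 10 to 100 CPM held the most calls: 885 of 5549 rose, or 15.9%, and 380 fell, or 6.85%. Rises were therefore more frequent than falls in this class, and they were small, with a median log2 change of 0.44 against -0.55 for the falls. From 100 to 1000 CPM rises and falls were about equally frequent, 131 and 133 of 991, with medians of 0.58 and -0.58. Among the 123 transcripts of 1000 CPM or more, 16 rose with a median of 0.84 and 14 fell with a median of -0.58. In this last class 5 rises and 0 falls reached a log2 change of 1, and the largest fall was -0.72.

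**Figure D1:**
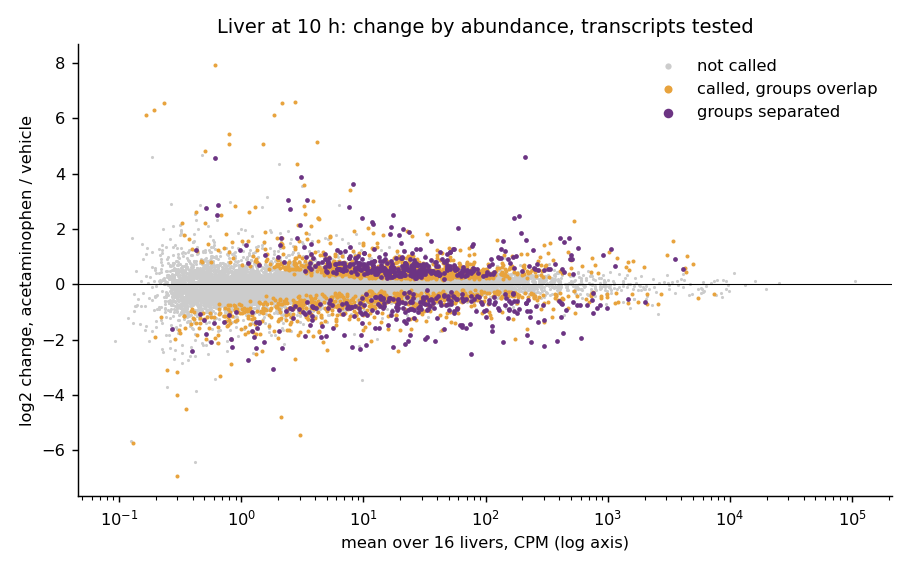
Log2 change between acetaminophen and vehicle livers at 10 h against mean abundance in CPM (log axis), with one point per transcript tested. The separated transcripts (purple) lie mostly above 10 CPM, whereas the largest called changes, up to 7.95, belong to scarce transcripts whose groups overlap.

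Ranked by difference in CPM, a small part of the called transcripts held much of the change in counts. A large difference in CPM needs a high CPM, so this ranking favours abundant transcripts, and it used these same livers. Transcripts that rose gained 51715 CPM in all between the group means, of which the 10 with the largest gains made up 38.1% and the 100 with the largest gains 76.2%. Those 10 held 2.51% ± 0.399 of the counts in vehicle livers and 4.39% ± 0.759 in acetaminophen livers (SD, n = 8 each). Among transcripts that fell, the 10 with the largest losses made up 27.4% of the total loss of 37300 CPM, and went from 3.22% ± 0.130 to 2.18% ± 0.266 of the counts (SD, n = 8 each). The typical transcript that rose had a mean of only 18.9 CPM, and the typical one that fell 14.4 CPM.

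The second question was which transcripts separated the groups completely, with every acetaminophen liver above every vehicle liver or every one below. This held for 385 transcripts that were higher with acetaminophen (2.58% of those tested) and 264 that were lower (1.77%), and 375 and 259 of them were also called. The separated transcripts thus made up 25.8% of the rises and 28.5% of the falls. The other 10 higher transcripts had adjusted p-values from 0.0534 to 0.154, and the other 5 lower ones from 0.0555 to 0.302 (edgeR). Without acetaminophen replicate 8, when fewer livers have to separate, the counts were 479 and 331.

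Separation was most frequent at 100 to 1000 CPM and, among called transcripts, at log2 changes of 2 to 3. The separated transcripts' median log2 change was 0.62 for the higher and -0.84 for the lower, and 111 of the higher changed by less than 0.5. The share separated grew with abundance, from 0.731% of transcripts under 1 CPM to 2.53% at 1 to 10 CPM, 6.72% at 10 to 100 CPM and 10.6% at 100 to 1000 CPM, and it was 4.88% above that. Among called rises, the share separated was 14.6% below a log2 change of 0.5, 35.9% from 0.5 to 1, 39.3% from 1 to 2 and 46.7% from 2 to 3, where 14 of 30 were. Among called falls it was 13.3%, 33.99%, 31.5% and 67.9%, with 19 of 28 in the last of these classes. It was lower for the largest changes: of the 22 rises of at least 3 on the log2 scale, 6 were separated, and of the 10 such falls, 1 was. In 13 of those 22 and 8 of those 10, at least 1 of the 16 livers had no count.

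The gap between the nearest livers of the groups was usually narrow. Its median was 0.09 on the log2 scale for the higher transcripts and 0.13 for the lower, with 0.5 CPM added to both sides. A ratio of at least 1.5 between the nearest livers was found for 19 higher and 19 lower transcripts, and a ratio of at least 2 for 6 and 5. No transcript in the files was at 0 in all 8 livers of one group and above 0 in all 8 of the other, so none showed that pattern at this depth. The separated transcripts had a median length of 2164 bases among the higher and 2432 among the lower, against 1994 over all transcripts tested.

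Scaling decided some of these cases. With library totals in place of TMM factors 341 higher and 261 lower transcripts separated, of which 277 and 213 also did so as reported above. On the deposited TPM the counts were 298 and 195, with 226 and 162 shared.

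**Figure D2:**
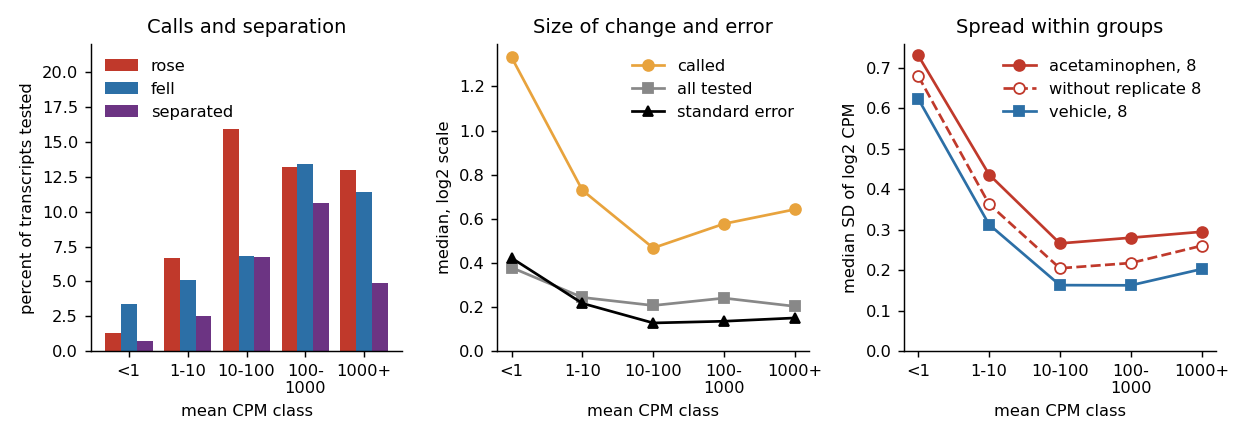
By class of mean CPM: the percent of transcripts tested that rose, fell or separated (left), the median size of the log2 change and its standard error (middle), and the median SD of log2 CPM among livers of a group (right). Calls peak at 10 to 100 CPM for rises and separation peaks at 100 to 1000 CPM. The median SD is higher among acetaminophen livers in each class, with and without replicate 8.

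The transcript with the widest gap among those called, separated and at a mean of at least 1 CPM was ENSRNOT00000019192, of 1542 bases. It lay between 10.1 and 21.6 CPM in vehicle livers, with a median of 16.03, and between 202 and 606 CPM in acetaminophen livers, with a median of 428. The lowest acetaminophen liver was thus 9.18 times the highest vehicle liver (0.5 CPM added). The log2 change was 4.62 ± 0.38 (SE; edgeR adjusted p = 1.45e-09), a 24.6-fold rise. The next widest gap among the higher transcripts was 1.13 on the log2 scale, against 3.20 here. At 5 h the groups overlapped, with medians of 26.7 CPM in vehicle and 27.2 CPM in acetaminophen livers, and a log2 change of 0.36 ± 0.33 did not pass the test (SE; edgeR adjusted p = 0.513).

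The most abundant separated rise was ENSRNOT00000048739, of 1312 bases. It ranked 55 among all transcripts by mean TPM in vehicle livers. Vehicle livers ranged from 2949 to 3750 CPM with a median of 3251, and acetaminophen livers from 4064 to 6548 CPM with a median of 4441. All acetaminophen livers were higher, but the nearest livers differed by only 1.08 times. The log2 change was 0.56 ± 0.15 (SE; edgeR adjusted p = 0.0117). Without acetaminophen replicate 1 the change was 0.47 and no longer passed (edgeR adjusted p = 0.0513), and without acetaminophen replicate 8 it was 0.48 (edgeR adjusted p = 0.0492). In vehicle livers at 5 h the same transcript ranged from 2524 to 7599.55 CPM, and the highest value was that of replicate 6 alone. The other 7 lay between 2524 and 4773 CPM.

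The widest gap among the lower transcripts belonged to ENSRNOT00000010381, of 2084 bases. Vehicle livers ranged from 20.8 to 37.4 CPM with a median of 29.9, and acetaminophen livers from 4.51 to 8.05 CPM with a median of 5.98. The highest acetaminophen liver stood well below the lowest vehicle liver, by 2.49 times. Its log2 change was -2.27 ± 0.19, with SE and an adjusted p of 3.22e-09 by edgeR. Its spread was of like size in both groups on the log2 scale, with an SD in acetaminophen livers 0.838 times that in vehicle livers. At 5 h, vehicle replicate 6 had 7.93 CPM of this transcript, within the range of acetaminophen livers at 10 h. The other 7 vehicle livers at 5 h lay between 16.9 and 28.6 CPM.

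The most abundant separated fall was ENSRNOT00000011230, of 2436 bases, which ranked 114 by mean TPM in vehicle livers. Its vehicle values were tightly grouped, from 2265 to 2699 CPM with a median of 2433, while acetaminophen livers ranged from 857 to 2182 CPM with a median of 1718. The lowest value was that of acetaminophen replicate 8, followed by 1144 CPM in replicate 7 and 1231 CPM in replicate 1. The SD of its log2 CPM was 5.73 times as large with acetaminophen as with vehicle. It fell by 0.63 ± 0.17 (log2 scale, SE; edgeR adjusted p = 0.0108), and the nearest livers differed by 1.04 times. Its separation depends on the TMM factors. Acetaminophen replicate 5 had 53243.6 of 23250514 counts, and vehicle replicate 8 had 51549.5 of 23409228. Scaled by library totals alone, the groups therefore overlap for this transcript. At 5 h, vehicle replicate 6 had 1135 CPM of it, within the range of acetaminophen livers at 10 h. The other 7 vehicle livers at 5 h lay between 2109 and 3114 CPM.

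**Figure D3:**
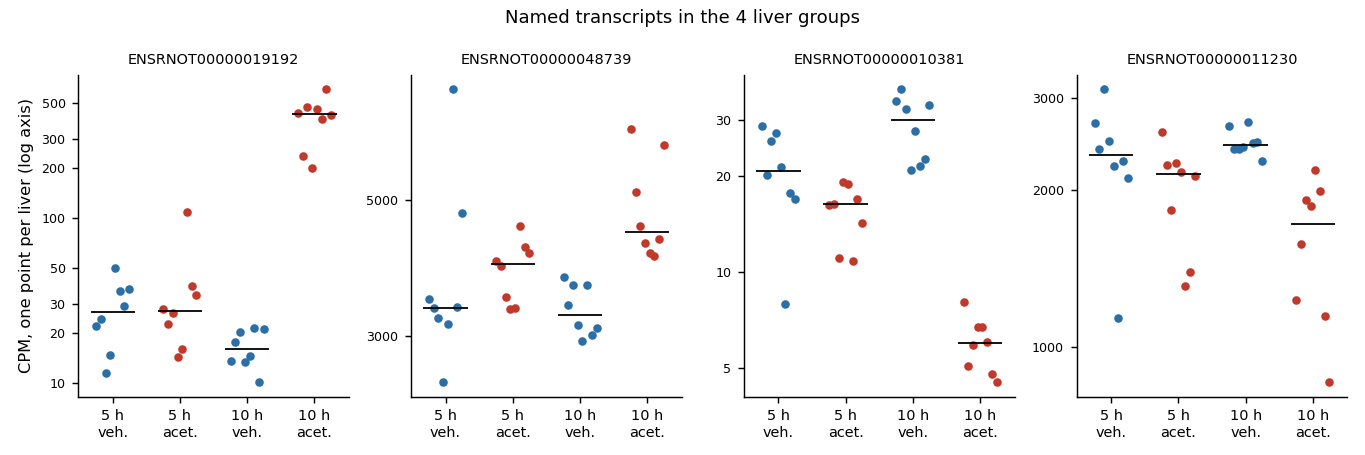
CPM (log axes) of the 4 named transcripts in the 4 liver groups, with one point per liver and a line at the median of 8. At 10 h no acetaminophen liver overlaps a vehicle liver in any panel on this TMM-scaled CPM, whereas at 5 h the groups overlap in all 4. On library totals ENSRNOT00000011230 overlaps at 10 h as well.

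The third question was how much acetaminophen livers differed among themselves. Over 14942 transcripts with some spread in both groups, the SD of log2 CPM among acetaminophen livers was a median of 1.40 times that among vehicle livers, and it was the larger of the 2 for 74.2% of them. Without replicate 8 the ratio was 1.18 and the share 63.97%. With all 16 libraries the ratio had a standard error of 0.245 by the jackknife, which leaves out 1 library at a time. It was 1.25 on log2(TPM + 1) and 1.31 with the median absolute deviation in place of the SD. Transcripts are not independent replicates, so shares and counts of them do not measure how certain the ratio is. The ratio was 1.098 for transcripts under 1 CPM, 1.34 at 1 to 10 CPM, 1.58 at 10 to 100 CPM, 1.62 at 100 to 1000 CPM and 1.52 at 1000 CPM or more. Without replicate 8 these were 1.04, 1.14, 1.26, 1.37 and 1.36. An SD more than 2 times as large with acetaminophen was seen for 3686 transcripts, and one less than 0.5 times as large for 352. Without replicate 8 these counts were 1931 and 608.

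The wider spread was not limited to transcripts that changed. The median ratio was 1.45 for transcripts that rose, 1.30 for those that fell and 1.40 for those that were not called. Without replicate 8 it was 1.24, 1.19 and 1.18.

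Each liver was also compared with the mean of the other 7 of its group. The root mean square difference in log2 CPM was 0.746 ± 0.138 for acetaminophen and 0.656 ± 0.0292 for vehicle livers (SD, n = 8 each), and this difference did not pass the test (exact permutation test over 12870 assignments, two-sided, p = 0.0591). The median absolute difference, which scarce transcripts affect less, was 0.283 ± 0.0957 against 0.195 ± 0.0218 (SD, n = 8 each; exact permutation test, two-sided, p = 0.00513). Acetaminophen replicate 8 was the farthest by both measures, at 1.04 and 0.495. Without it the median absolute difference was still larger with acetaminophen, 0.242 against 0.195 (exact permutation test, two-sided, p = 0.00777), while the root mean square was 0.702 against 0.656 (exact permutation test, two-sided, p = 0.120). Distances within a group share their livers, so they are not fully independent.

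**Figure D4:**
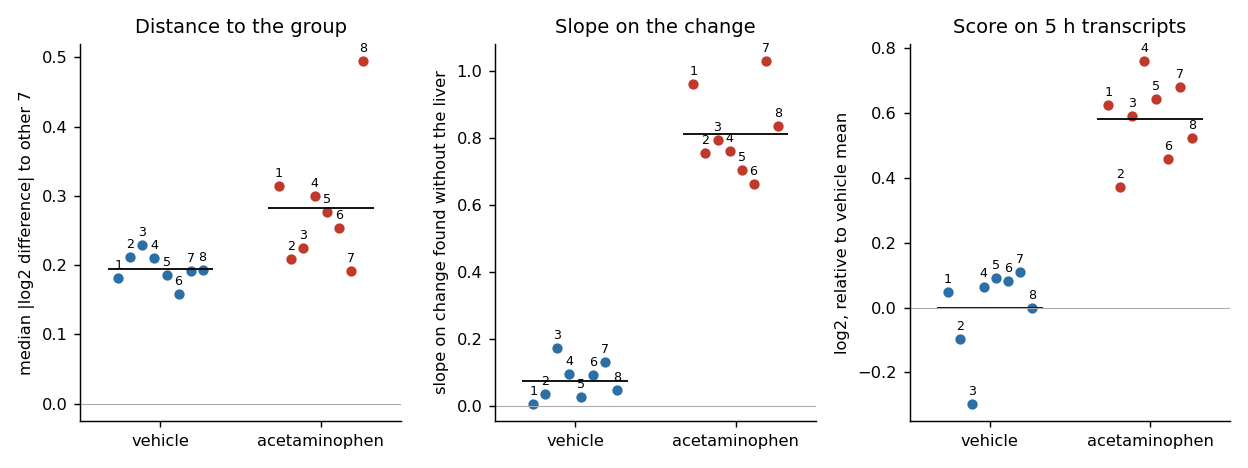
For each liver at 10 h: the median absolute difference in log2 CPM to the other 7 of its group (left), the slope of its deviations on the change found without it (middle), and its score on transcripts called at 5 h (right), with replicate numbers and a line at the mean. All 8 acetaminophen livers lie above all 8 vehicle livers for the slope and the score, but not for the distance.

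Each liver's deviations were then set against the change found in the others. For each liver the comparison was refitted without it, and its own deviations from the vehicle mean were regressed, through the origin, on the log2 changes of the transcripts then called at a mean of at least 1 CPM (1765 to 2319 of them). A slope of 1 means deviations as large as the change estimated from the other livers. The transcripts were called from the same estimates that serve as the regressor, which favours large estimates, so a slope below 1 does not show a smaller response. Deviations and changes both used the same vehicle livers, so an error in their mean raises the slopes and the shares in the called direction. The list of transcripts also differed between livers, and the slopes are given as a description. Vehicle livers had slopes from 0.00755 to 0.173. Acetaminophen livers had slopes from 0.664 in replicate 6 to 1.03 in replicate 7, with a median of 0.777. The next highest was replicate 1 at 0.962, and the next lowest replicate 5 at 0.705.

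Directions were compared on the same lists, with the same limits. In acetaminophen replicate 7, 99.3% of the transcripts called without it deviated in the called direction. The share was lowest in replicate 8, at 87.4%, and in replicate 5, at 89.9%. In vehicle livers it lay between 43.4% and 63.4%. For transcripts that rose, the slope ran from 0.644 to 1.02 over acetaminophen livers, and for those that fell from 0.684 to 1.07. Replicate 8 had 0.741 for rises and 0.956 for falls.

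Single livers also limited the separation. Leaving out acetaminophen replicate 6 would add 107 separated higher transcripts, leaving out replicate 5 would add 100 and leaving out replicate 8 would add 94. Leaving out replicate 7 would add only 11. For the lower transcripts, replicate 8 alone broke the separation of 67 and replicate 1 of 52, although replicate 1 had the highest slope for falls. On the vehicle side replicate 3 did so most often, for 70 higher and 64 lower transcripts. Among called rises, 71.9% had at least 6 of the 8 acetaminophen livers above all vehicle livers, and 4.74% had fewer than 4. Among called falls these shares were 71.2% and 9.79%.

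Transcripts called in the 5 h livers, which come from other rats, gave a second view of the same livers. The score is the mean log2 CPM of the 1102 transcripts that rose at 5 h (7.37% of those tested) minus that of the 977 that fell (6.54%), relative to the vehicle mean at 10 h. It lay between 0.37 and 0.76 in acetaminophen livers, with the lowest value in replicate 2 and the highest in replicate 4, and between -0.30 and 0.11 in vehicle livers. The groups did not overlap. Replicate 8 lay within the range of its group, at 0.52, but its parts were uneven. For transcripts that rose at 5 h its mean was 0.179 relative to vehicle, near the group's lowest of 0.178 and below its median of 0.298. For those that fell it was -0.346, against a group median of -0.332. The 5 h lists came from a fit that held 5 h livers with length slopes like that of replicate 8.

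Finally, the separated transcripts were followed in the other livers and in the kidneys of the series, whose libraries played no part in the rule of separation. The 5 h livers do share the fit's filter and estimate of spread with the 10 h livers. Of the 385 higher transcripts, 122 also rose in liver at 5 h, or 31.7%, against 7.37% of all tested, and 10 fell. Of the 264 lower transcripts, 129 also fell at 5 h, or 48.9%, against 6.54% of all tested, and 0 rose. The shares over all tested are not matched for abundance, here or in kidney below. A mean of at least 10 CPM was held by 293 of the 385 and 191 of the 264. At 10 h, calls were rarer below 10 CPM than above it. The median log2 change at 5 h was 0.17 for the higher and -0.48 for the lower, where all transcripts tested had a median of 0.03. The sign was the same at both times for 289 of the 385, or 75.1%, and 241 of the 264, or 91.3%. Over all transcripts tested, 53.1% had a positive and 46.9% a negative log2 change at 5 h. Without liver libraries 28, 29, 30 and 32, 109 of the 385 rose at 5 h and 25 fell, or 28.3% risen against 8.53% of all tested. Of the 264, 158 then fell and 4 rose, or 59.8% fallen against 9.61%. By the same rule 141 transcripts were separated upward (0.944% of those tested) and 133 downward (0.89%) at 5 h. Of these, 20 and 34 were separated at both times, which is 14.2% and 25.6% of the 5 h lists and 5.19% and 12.9% of the 10 h lists.

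Effects at 10 h and 5 h differed for 829 transcripts when the difference itself was tested with edgeR. The 10 h effect was the more positive for 563 of them (3.77% of those tested) and the more negative for 266 (1.78%). Among the separated higher transcripts, 146 had a larger effect at 10 h and 4 a smaller one. Among the lower ones, 36 had a more negative effect at 10 h and 2 a less negative one. Since these transcripts were chosen for their difference at 10 h, larger effects at that time are favoured by the choice. For ENSRNOT00000019192 the effect was larger at 10 h by 4.25 ± 0.48 and for ENSRNOT00000010381 it was more negative by -1.84 ± 0.26 (log2 scale, SE; edgeR adjusted p = 1.89e-06 and 5.92e-05). For ENSRNOT00000048739 and ENSRNOT00000011230 the difference was 0.58 ± 0.22 and -0.42 ± 0.24 and did not pass the test (SE; edgeR adjusted p = 0.116 and 0.353). Without liver libraries 28, 29, 30 and 32, effects differed for 1117 transcripts. The differences of ENSRNOT00000019192 and ENSRNOT00000010381 were then 4.81 ± 0.41 and -1.72 ± 0.22 (SE; edgeR adjusted p = 4.29e-08 and 1.91e-05), and the remaining named transcripts again did not pass. ENSRNOT00000010381 then also fell at 5 h, with a log2 change of -0.52 (edgeR adjusted p = 0.0229), against -0.42 with them (edgeR adjusted p = 0.127).

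**Figure D5:**
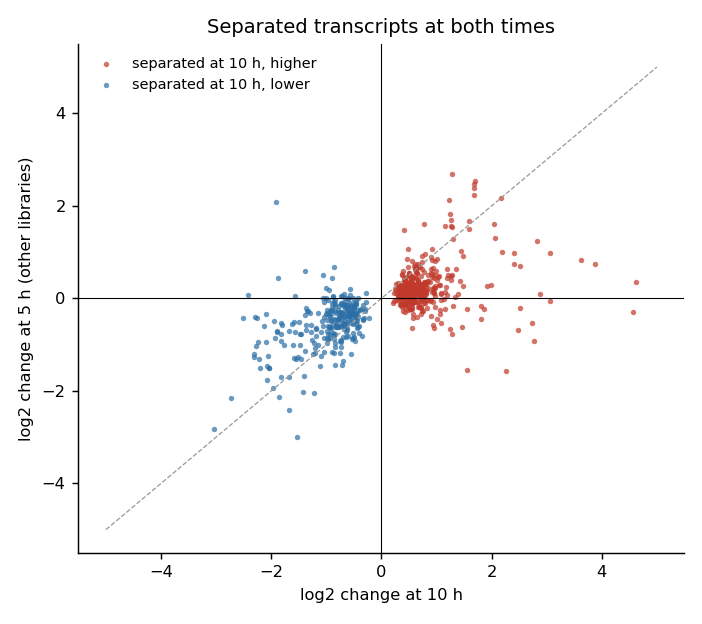
Log2 change at 5 h against that at 10 h for the 385 higher and 264 lower transcripts separated at 10 h, with the dashed line where both are equal. Most lower transcripts are below 0 at 5 h as well (241 of 264), while many higher ones lie near 0, with a median of 0.17.

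In kidney 383 of the higher and 243 of the lower transcripts were tested. At 10 h, 12 of the higher also rose there (3.13%, against 0.694% of all tested) and 11 of the lower also fell (4.53%, against 0.648%), while 2 of the higher fell and 2 of the lower rose. At 5 h in kidney, 49 of the higher rose (12.8%, against 2.79%) and 3 fell. Of the lower, 10 fell (4.12%, against 2.29%) and 9 rose. Median log2 changes in kidney were small, 0.07 and -0.09 at 10 h and 0.11 and -0.04 at 5 h. The kidneys came from the same 32 rats, but the labels do not say which liver and kidney share a rat. ENSRNOT00000019192 had a log2 change of 0.92 ± 0.41 in kidney at 10 h, which did not pass the test (SE; edgeR adjusted p = 0.313). In kidney at 5 h it rose by 1.67 ± 0.41 (SE; edgeR adjusted p = 0.0162), with acetaminophen kidneys from 4.94 to 85.8 CPM and vehicle kidneys from 3.99 to 12.7 CPM, which overlap. This rests on 1 kidney, acetaminophen replicate 6: the other 7 reached at most 17.97 CPM, and without it the log2 change was 0.68 ± 0.24 and did not pass the test (SE; edgeR adjusted p = 0.0732). ENSRNOT00000010381 had -0.10 ± 0.12 at 10 h (SE; edgeR adjusted p = 0.806), and it rose by 0.43 ± 0.12 in kidney at 5 h (SE; edgeR adjusted p = 0.0342), opposite to its direction in liver.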

How the data were processed

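Stranded poly-A libraries were made from TRIzol-extracted RNA and sequenced single-end, per the labels' protocols. That protocol names cultured cells as the source of RNA, which differs from the tissue given for each sample. The authors deposited estimated counts and TPM per transcript, made with kallisto 0.42.4 on Rnor 6.0 per the submitters' processing notes. The deposited TPM correct for effective transcript length and sum to the same total in every library. kallisto shares reads between similar transcripts, so related transcripts cannot be fully told apart, and 26.6% of the estimated counts over all 64 libraries are not whole (tolerance 1e-06).

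After rounding to whole numbers, the 32 liver libraries in 4 groups entered 1 edgeR 4.0.16 fit (R 4.3.3; filterByExpr, TMM, glmQLFit and glmQLFTest), and the 32 kidney libraries another. Separation used TMM-scaled CPM, and spread used log2 CPM with a prior count of 2. The fit was tested on simulated data. DESeq2 1.42.0, limma 3.58.1, other scalings and filters, covariates and leaving out single libraries were alternatives. Fits without 1 library repeat the filter. Named transcripts are separated, called and at a mean of at least 1 CPM; in each direction they are the one with the widest gap and the most abundant one. Planned gene and marker lists could not be run without symbols. The samples, groups of transcripts and tests were chosen with earlier results of these data known. Replicates are numbered in accession order. The standard error of a log2 change is its size over the root of edgeR's F. The response slope, the kidney fit without 1 library, the 5 h shares without acetaminophen replicate 8 and the fit without libraries 28, 29, 30 and 32 were added after seeing the data. No batch is labelled.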

Additional observations from a re-analysis of the deposited data

Results flagged for a closer look

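In 7 of 32 groups of 8 values examined, 1 library lay far from the others of its group by Dixon's ratio, which chance gives in about 1 of 20 groups. Acetaminophen replicate 8 did so for the slope on transcript length (-0.181), the root mean square distance to its group (1.04) and the median absolute distance (0.495). Acetaminophen replicate 1 did so for the share of counts in the 10 most abundant transcripts, 25.9%, and vehicle replicate 2 for a length slope of 0.0339. Among 5 h livers, acetaminophen replicate 6 had 108.9 CPM of ENSRNOT00000019192, where the group's median was 27.2, and vehicle replicate 6 had 7599.55 CPM of ENSRNOT00000048739, where the group's median was 3337. These are liver libraries 29 and 30.

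By edgeR's test of the difference itself, 829 transcripts had unlike effects at 10 h and 5 h. For ENSRNOT00000019192 the log2 effect at 10 h minus that at 5 h was 4.25, and for ENSRNOT00000010381 it was -1.84.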

How the results depend on the processing

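The count of transcripts called stayed within 1.5 times of that reported under all 29 alternatives run, and from 1843 to 2433 without single libraries. Falls numbered 1418 by limma voom with weights and 1474 with the length slope as a covariate. Without liver libraries 28, 29, 30 and 32, an alternative chosen after seeing the data, 1543 rose and 1237 fell (library 28 is acetaminophen replicate 8; the others are the 5 h livers with like length slopes). Without acetaminophen replicate 8, also chosen afterwards, the shares of separated transcripts called at 5 h were 30.9% of the higher and 46.8% of the lower, and without the 4 libraries 28.3% and 59.8%. The share of calls that rose lay between 54.01% (DESeq2) and 63.7% (limma on log2(TPM + 1)). Effects differing between the times numbered 1849 and 1822 by limma on TPM (pseudocounts 1 and 0.1), 1258 by limma voom and 1500 with the length slope. Requiring a gap of 1.5 or 2 times cut the separated transcripts to 19 and 6 higher and 19 and 5 lower.

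The difference in root mean square distance between the groups passed the exact permutation test on library totals (0.0980, p = 0.0452), on log2(TPM + 1) (0.0652, p = 0.0441), for transcripts of at least 10 CPM (0.120, p = 0.00948) and as a median absolute difference (0.0881, p = 0.00513). Without single libraries it ranged from 0.0460 to 0.116 (p from 0.0146 to 0.166). The cause was not tested. The ratio of SDs lay between 1.18 and 1.45 without single libraries.

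Median sizes of called changes were 0.32 under 1 CPM and 0.48 at 1 to 10 CPM on log2(TPM + 1). With classes by TPM they were 0.57 at 1 to 10 and 0.92 at 1000 or more. Without single libraries they ranged from 0.74 to 0.78 at 1 to 10 CPM and from 0.47 to 0.50 at 10 to 100 CPM. No paired analysis was possible because the labels carry no animal or replicate numbers.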

Other observations

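Vehicle replicate 3 lay on different sides of its group by the 2 views of the response. On transcripts called at 5 h its score was -0.30, the lowest of the vehicle livers, where the other 7 lay between -0.10 and 0.11. On transcripts called at 10 h without it, its slope was 0.173, the highest of the vehicle livers.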
